A study of Mus musculus with 2 samples.

Results

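Wnt ligands are secreted, lipid-modified glycoproteins that bind Frizzled receptors together with Lrp5, Lrp6, Ror or Ryk co-receptors, and that act either through beta-catenin and the TCF/LEF transcription factors (the canonical branch) or through cell polarity and calcium (the non-canonical branches). In the kidney, ligand made by the ureteric epithelium induces the cap mesenchyme of nephron progenitors, which then makes its own ligand and turns into epithelium, while further ligands act in the branching tips, in the ureteric trunk and in the stroma. The accessibility of 7 genes of this family that the developing kidney is known to use was examined in single-nucleus ATAC-seq (snATAC-seq), an assay that reads, nucleus by nucleus, where a transposase could cut the DNA. Chosen by name, of 21897 genes with GENCODE M21 annotation counted here, were Wnt4, which drives the turn of progenitors into epithelium, Wnt9b, the inductive signal of the ureteric epithelium, Wnt11, a ligand of the branching ureteric tips, Wnt7b, a ligand of the ureteric trunk that acts on the medulla, Wnt5a, a non-canonical ligand of mesenchyme, Wnt2b, a stromal ligand, and Wnt6, a ligand of the ureteric epithelium. The members are the peaks that touched a gene body or the 2 kb upstream of it: 36 of 159560 peaks in the Enl-WT library and 29 of 130027 in the Enl-T1 library. These made 25 of the 110706 regions in which peaks of both libraries overlapped, and left 11 peaks called in Enl-WT alone and 5 in Enl-T1 alone.

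The kidneys came from B6 mouse embryos at E15.5, mid-gestation. Enl-WT stands for Enl +/+ Wt1 GFPCre/+ and Enl-T1 for Enl flox-T1/+ Wt1 GFPCre/+, in which Cre inverts a cassette so that 1 Enl allele carries the T1 insertion, a change of the chromatin reader ENL found in Wilms tumour. Both groups therefore carried the Wt1 GFPCre knock-in, which takes up 1 Wt1 allele and acts where the Wt1 promoter is on, in the nephron and stromal lineages. There was 1 library per group. The number of embryos behind each library is not stated in the labels or methods, and accessibility of Enl cannot check the label, since the mutation changes the protein. Without replicates no difference was tested. Both values are given, each count stands for 1 end of a fragment, and the 95% intervals are exact Poisson or binomial intervals on counts divided by 2, which cover counting error only.

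Kept nuclei numbered 9472 in Enl-WT against 12635 in Enl-T1, with medians of 14789.5 and 8753 counts, and 149 of their barcode sequences occurred in both libraries. Nuclei of both libraries were clustered together without any region within 100 kb of the 7 genes, which gave 21 clusters, named where possible (clusters 12 and 15 stayed unnamed) from marker lists that hold no Wnt gene. The nephron progenitor-like class (progenitor-like below) held 1974 nuclei of Enl-WT against 4345 of Enl-T1, or 1970 against 1719 where a name had to lead the next lineage by 0.2 rather than 0.1 on the log2 scale, since cluster 1 then lost its name. The stroma-like class held 2951 and 4926, the ureteric epithelium-like class (ureteric-like below) 883 and 1725, and the endothelial-like class 710 and 511. Different clusters held the progenitor-like class in the libraries: cluster 2 had 1969 nuclei of Enl-WT against 96 of Enl-T1, cluster 1 had 4 and 2626, and cluster 5 had 1 and 1623. Cluster 1, with 3 of the progenitor markers raised, scored 0.564 for them and 0.428 for the next lineage. Of the 8 progenitor markers (Six2, Cited1 and others), 1 was higher in Enl-T1 within this class, with a summed level of 367.4 in CPM, the counts of a class scaled to a common total, in Enl-WT against 290.4 in Enl-T1. Summed medullary stroma markers were 578.0 and 686.1 CPM there, with 5 of 6 genes higher in Enl-T1. The part of these shifts in the values below was not tested.

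The sequences of 3 promoters and 3 regions on which the values below turn are given first, 5′ to 3′ on the strand of the gene. Promoters are from RefSeq (GRCm38.p6), which held sequences for 5 of the 7 genes, and are printed up to the base before the annotated gene. Regions show the 300 bases at the centre of the region, from the same build (mm10). Capitals mark matches to the searched letters, on either strand, which are GTGGGNG for Wt1, TTTATNG for Hox9 to Hox13, TGANACC for Six2 and its relatives, TGANTCA for AP-1, AGATAA for Gata, and CTTTGAT or CTTTGAA for TCF/LEF. The Wnt9b promoter (chr11:103749822-103750071, minus strand) and the Wnt9b region 12.45 kb into the gene (chr11:103737218-103737517, minus strand) are shown because the first was highest in ureteric-like nuclei and the second was not, the Wnt4 promoter (chr4:137277385-137277488, plus strand), the Wnt4 region at 37.4 kb (chr4:137314705-137315004, plus strand), and the Wnt5a region at 35.1 kb (chr14:28539704-28540003, plus strand) because they were higher in Enl-T1, and the Wnt11 promoter (chr7:98834862-98835111, plus strand) because it was lower there in ureteric nuclei.
Wnt9b promoter: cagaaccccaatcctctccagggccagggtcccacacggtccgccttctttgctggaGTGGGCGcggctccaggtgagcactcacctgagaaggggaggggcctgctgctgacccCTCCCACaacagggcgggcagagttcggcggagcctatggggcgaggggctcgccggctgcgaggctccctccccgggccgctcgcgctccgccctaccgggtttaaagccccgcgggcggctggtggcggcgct
Wnt9b region at 12.45 kb: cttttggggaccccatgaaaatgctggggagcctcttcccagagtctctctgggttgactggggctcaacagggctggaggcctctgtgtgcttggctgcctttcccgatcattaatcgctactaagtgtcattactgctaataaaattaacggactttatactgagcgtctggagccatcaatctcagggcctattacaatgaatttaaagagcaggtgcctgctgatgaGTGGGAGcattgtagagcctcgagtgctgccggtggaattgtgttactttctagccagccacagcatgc
Wnt4 promoter: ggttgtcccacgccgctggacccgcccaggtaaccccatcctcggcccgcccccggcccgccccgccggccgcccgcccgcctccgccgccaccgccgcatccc
Wnt4 region at 37.4 kb: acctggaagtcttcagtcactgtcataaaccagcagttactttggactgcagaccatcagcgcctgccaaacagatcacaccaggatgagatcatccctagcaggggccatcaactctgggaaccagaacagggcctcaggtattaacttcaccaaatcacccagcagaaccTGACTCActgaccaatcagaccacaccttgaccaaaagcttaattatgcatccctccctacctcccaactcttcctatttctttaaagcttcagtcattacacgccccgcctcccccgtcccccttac
Wnt5a region at 35.1 kb: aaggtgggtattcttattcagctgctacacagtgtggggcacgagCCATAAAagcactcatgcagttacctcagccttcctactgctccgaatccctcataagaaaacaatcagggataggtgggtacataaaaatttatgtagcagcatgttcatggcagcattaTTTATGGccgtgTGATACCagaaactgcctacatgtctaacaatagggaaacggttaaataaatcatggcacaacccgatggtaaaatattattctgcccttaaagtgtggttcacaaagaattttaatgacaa
Wnt11 promoter: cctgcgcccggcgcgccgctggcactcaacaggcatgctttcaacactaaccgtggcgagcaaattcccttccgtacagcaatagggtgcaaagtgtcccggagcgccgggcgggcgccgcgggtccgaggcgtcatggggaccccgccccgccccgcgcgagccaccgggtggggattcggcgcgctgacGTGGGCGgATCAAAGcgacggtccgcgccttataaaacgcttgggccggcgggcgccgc

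The letters searched for Wt1, the factor whose gene carries the Cre, stood in 9 of the 25 member regions, against 28.5% of 110665 regions of the same window. Those for TCF/LEF, the factors that answer canonical Wnt signals, stood in 2 of 25 against 11.2%, those for Hox9 to Hox13 in 2 against 15.4%, those for Six2 in 2 against 13.5%, those for AP-1 in 1 against 10.1% and those for Gata in 0 against 13.4%. Tead letters (GGAATG) stood in 3 against 18.1%, ETS letters (CCGGAA) in 2 against 7.79%, and the Hnf1 motif in 0 against 0.0741%. The members had 6 promoter windows for 5 genes, so these are not all of separate genes, as is so for the 32851 windows of 27025 genes. Of the 6, 4 held Wt1 letters against 28.1% of the 32851, and 1, that of Wnt11, held TCF/LEF letters against 7.48%.

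How open each gene was in each class was compared first, per kb of peak, so that genes could be set beside each other. Wnt9b had the highest level of any member in ureteric-like nuclei, 36.83 CPM per kb (34.36 to 39.44) in Enl-WT against 34.33 (32.17 to 36.60) in Enl-T1. Its next levels in Enl-WT were 19.03 in distal tubule or loop-like and 15.89 in proximal tubule-like nuclei, with overlapping intervals for these neighbours, and its lowest among the large classes was 2.23 in stroma-like nuclei (2.19 in Enl-T1). Wnt7b followed the same order at the top, with 20.42 CPM per kb in ureteric-like nuclei of Enl-WT and 21.78 in those of Enl-T1, then 16.98 in distal tubule or loop-like and 14.30 in early nephron epithelium-like nuclei of Enl-WT. Both ligands were thus most open in the ureteric class of either library.

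Summed over their shared regions, Wnt5a and Wnt2b were most open in stroma-like nuclei among the 4 classes compared below. Wnt5a stood at 18.79 CPM per kb (17.53 to 20.10) in Enl-WT against 21.10 (19.79 to 22.47) in Enl-T1, beside 9.23 and 11.50 in progenitor-like nuclei. Wnt2b stood at 6.95 and 6.09 in stroma-like nuclei and at 1.52 and 2.01 in ureteric-like nuclei. Wnt4 was most open in early nephron epithelium-like nuclei of both libraries, with 16.27 CPM per kb in Enl-WT against 22.24 in Enl-T1, followed by progenitor-like nuclei with 13.01 and 20.38. In Enl-T1 the intervals of this pair overlapped (16.37 to 29.52 and 19.29 to 21.51). Proximal tubule-like (12.82) and ureteric-like nuclei (11.83) of Enl-WT were close behind, with intervals that overlapped that of progenitor-like nuclei. Per kb, levels of Wnt4 are not comparable between the libraries, because its peaks summed to 4922 bp in Enl-WT against 3142 bp in Enl-T1.

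Summed over their shared regions, Wnt11 and Wnt6 varied little over these 4 classes, but single regions differed more. In Enl-WT, 2 of 5 Wnt11 regions and 1 of 3 Wnt6 regions were at least 2-fold higher in ureteric-like than in other nuclei. In Enl-T1 there were 0 of either gene. Wnt11 ranged from 9.17 CPM per kb in endothelial-like to 13.61 in ureteric-like nuclei of Enl-WT, the latter beside 13.51 in stroma-like nuclei with overlapping intervals. Wnt6 ranged from 9.61 to 13.24 over the same classes of Enl-WT and from 8.88 to 14.55 over those of Enl-T1, and its highest value in Enl-WT was 18.03 in podocyte-like nuclei. The share of nuclei with any signal depends on depth, so it was also taken after thinning every nucleus to 4000 counts, which left out 11 and 74 ureteric-like and 37 and 323 stroma-like nuclei. Before thinning, 58.5% (exact binomial interval 55.1 to 61.8) of the remaining ureteric-like nuclei of Enl-WT, at a median of 15787.5 counts, had signal at Wnt9b. The share was 41.3% (38.9 to 43.7) in Enl-T1, at a median of 9439.0 counts. In stroma-like nuclei it was 4.74% (3.99 to 5.57) against 3.15% (2.66 to 3.70), at medians of 13852.0 and 8253.0 counts. Thinned, 21.3% of ureteric-like nuclei of Enl-WT and 20.8% of the Enl-T1 ones had signal at Wnt9b, against 1.45% and 1.64% of stroma-like nuclei. For Wnt7b the shares were 15.0% and 17.1% against 4.92% and 5.40%.

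**Figure D1:**
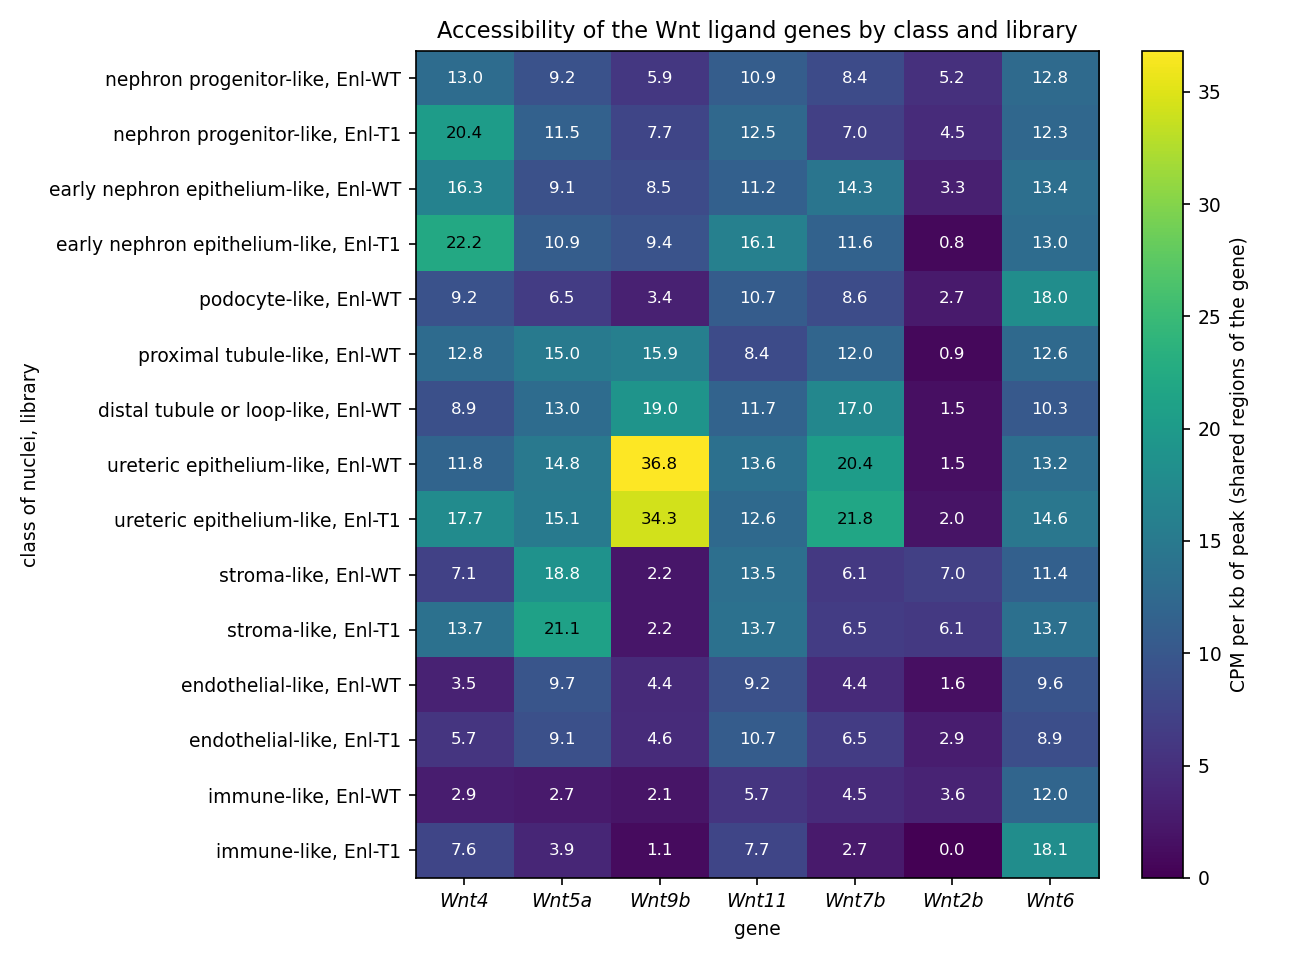
Accessibility of the 7 genes (x axis) in each class of each library (y axis), as CPM per kb of peak over the regions shared by the libraries. The highest values are those of Wnt9b in ureteric-like nuclei, 36.83 in Enl-WT against 34.33 in Enl-T1.

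Region by region, 8 of the 25 member regions were at least 2-fold higher in ureteric-like nuclei than in the other nuclei of Enl-WT, and 6 of 25 in Enl-T1, beside 11.2% and 13.5% of all regions. Wnt9b gave 3 of these in either library, Wnt7b 2 in Enl-WT against 3 in Enl-T1, Wnt11 2 in Enl-WT against 0 in Enl-T1, and Wnt6 1 and 0. Intronic regions were among them. The Wnt7b region at 39.55 kb (chr15:85542463-85543384), near the far end of the gene, stood at 22.65 CPM in ureteric-like nuclei of Enl-WT and 27.68 in those of Enl-T1, 10.4-fold and 17.4-fold over the other nuclei. The Wnt9b region at 14.27 kb (chr11:103735027-103736067) stood at 61.37 and 56.02 CPM, 6.38-fold and 16.8-fold over the other nuclei. These other nuclei were not alike in the libraries: distal tubule or loop-like nuclei, in which the region had 37.27 CPM in Enl-WT, numbered 731 in Enl-WT against 78 in Enl-T1, and proximal tubule-like nuclei, with 35.08 CPM, 669 against 5. Folds over the other nuclei are therefore not compared between the libraries. The region upstream of the Wnt7b start (-0.93 kb) had no such contrast, with 16.48 CPM in ureteric-like nuclei of Enl-WT beside 14.28 in stroma-like and 13.61 in progenitor-like nuclei.

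The regions of Wnt9b did not share one order of classes. At its start (chr11:103749350-103750331, the promoter printed above) the level in ureteric-like nuclei was 44.24 CPM in Enl-WT against 43.99 in Enl-T1, and it was next highest in Enl-WT in distal tubule or loop-like nuclei (20.24) and proximal tubule-like nuclei (15.49). The intronic regions at 10.48 kb (23.06 and 17.88 CPM) and 14.27 kb were also highest in ureteric-like nuclei among the 4 classes compared below. The region between them, at 12.45 kb (chr11:103736934-103737801), had 4.95 and 5.59 CPM in ureteric-like nuclei, and 6.35 CPM in Enl-WT against 15.80 in Enl-T1 in progenitor-like nuclei. In Enl-WT these levels rest on 61 and 177 counts and are close, and the highest was that of distal tubule or loop-like nuclei, 8.31 CPM on 83 counts (5.98 to 11.26). Stroma-like nuclei stood at 1.14 and 1.46 CPM.

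**Figure D2:**
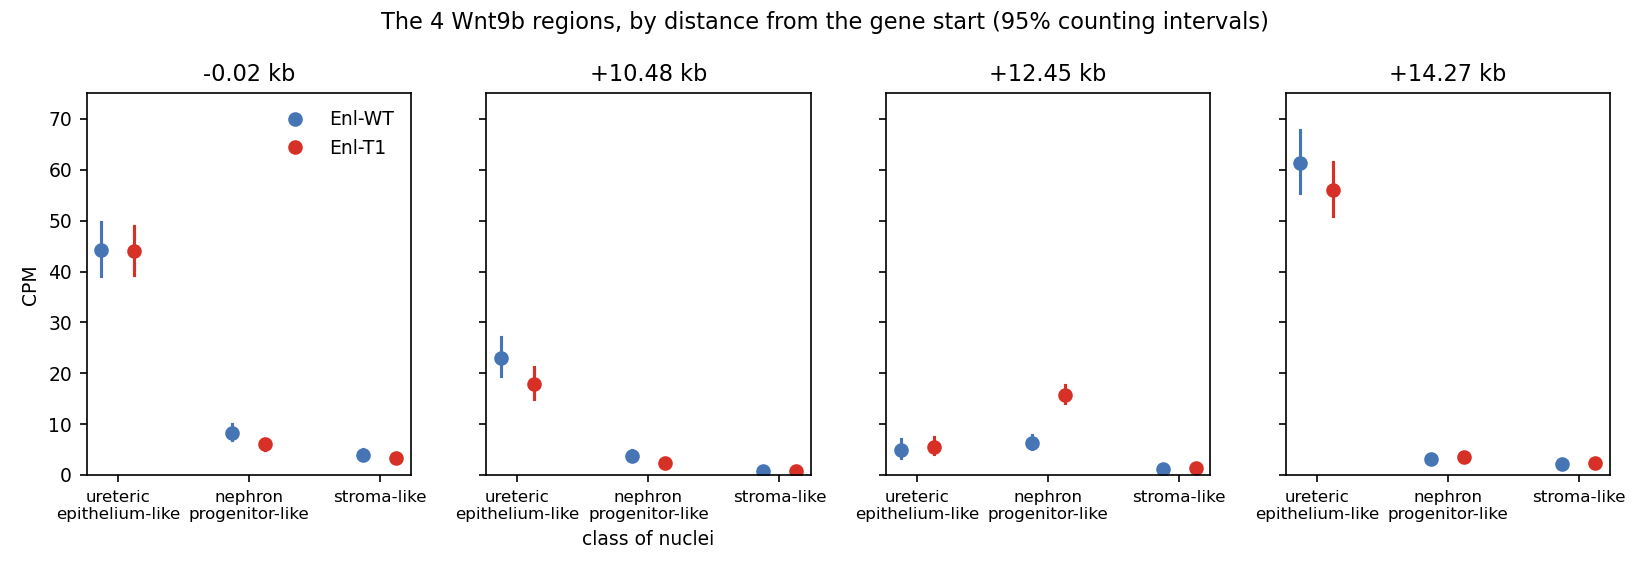
CPM (y axis) of the 4 shared regions of Wnt9b in 3 classes (x axis) of Enl-WT (blue) and Enl-T1 (red), with bars for 95% counting intervals. The regions at the start, at 10.48 kb and at 14.27 kb are highest in ureteric-like nuclei, and the region at 12.45 kb is highest in progenitor-like nuclei of Enl-T1, at 15.80 CPM.

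The libraries were then compared class by class, in regions with at least 200 counts over both, with a region called higher or lower in Enl-T1 past 1.5-fold (0.585 on the log2 scale). In progenitor-like nuclei 21 of 25 member regions had the counts. Of these, 2 were higher and 2 lower, beside 11.1% and 12.0% of all regions, and their median log2 ratio was 0.04 beside 0.005. In stroma-like nuclei 19 had the counts, 2 were higher and 1 lower beside 7.26% and 5.74%, and the median was 0.08 beside 0.019. In ureteric-like nuclei 20 had the counts, 0 were higher and 2 lower beside 3.73% and 2.69%, and the median was -0.07 beside -0.021. In endothelial-like nuclei 1 region had the counts and it was not called, beside 1.63% higher and 4.59% lower. With 0 to 2 regions called in a direction, these counts are too small to be set apart from the backgrounds.

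Summed over its shared regions, none of the 7 genes passed 1.5-fold in any of these classes among those with 200 counts (7 genes in the progenitor-like and stroma-like classes, 6 in the ureteric-like and endothelial-like classes). The backgrounds over all genes were 1.55% higher and 2.05% lower in the progenitor-like class, 1.02% and 0.702% in the stroma-like, 0.886% and 0.528% in the ureteric-like, and 0.886% and 1.11% in the endothelial-like class. Gene sums ranged from -0.25 (Wnt7b) to 0.36 (Wnt9b) on the log2 scale in the first class, from -0.12 (Wnt2b) to 0.31 (Wnt4) in the second and from -0.23 (Wnt11) to 0.10 (Wnt6) in the third. The highest in endothelial-like nuclei was Wnt7b at 0.58 (0.06 to 1.08), on 173 counts in Enl-WT against 111 in Enl-T1. Per base of peak, Wnt4 was past the line in 3 classes, at 0.65 in progenitor-like, 0.96 in stroma-like and 0.72 in endothelial-like nuclei, its peaks being shorter in Enl-T1. Wnt5a reached 0.86 in progenitor-like nuclei placed by their own markers, a setting whose names differ widely from the main run, as given in a closing section.

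**Figure D3:**
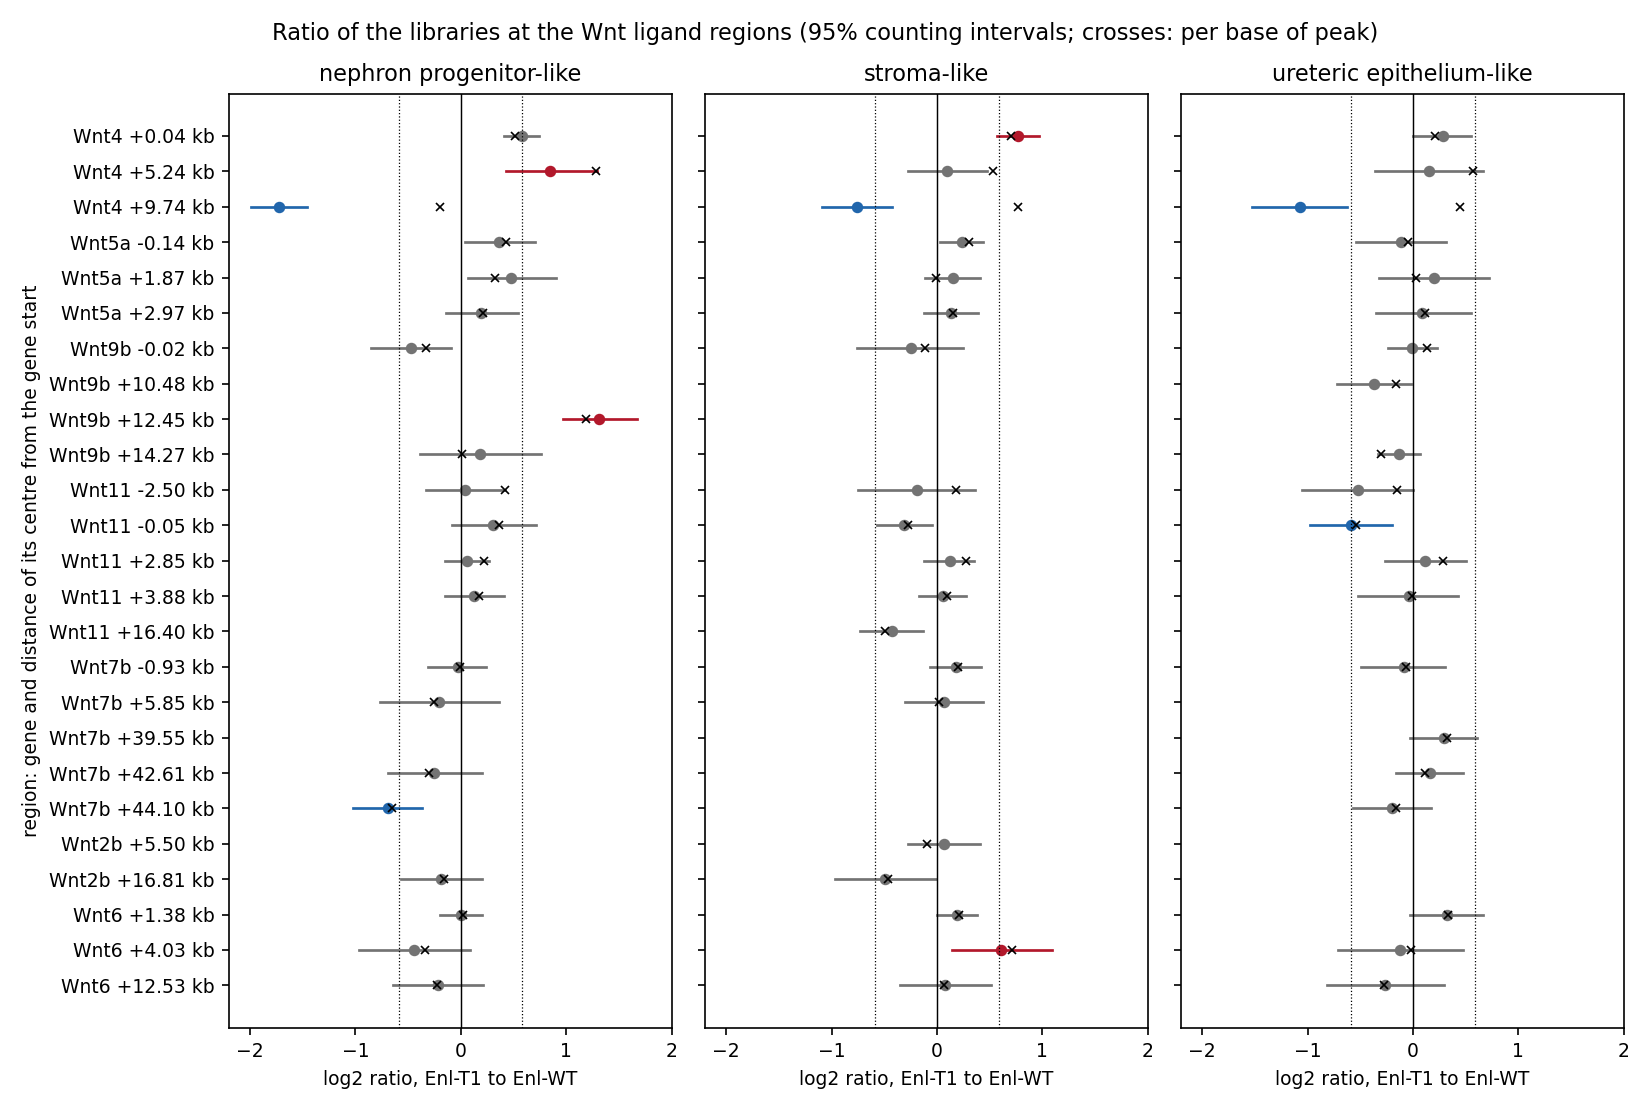
Log2 ratio of Enl-T1 to Enl-WT (x axis) for each member region with at least 200 counts (y axis) in 3 classes, with 95% counting intervals, where red is higher and blue lower past 1.5-fold (dotted lines) and crosses are the ratio per base of each library's peak. The Wnt9b region at 12.45 kb is the highest circle at 1.31, and the Wnt4 region at 9.74 kb moves from -1.73 to -0.20 per base in progenitor-like nuclei.

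Wnt4 was the member with most regions past the line, and they moved in both directions. At its start (chr4:137276806-137278259), stroma-like nuclei had 17.56 CPM in Enl-WT against 29.96 in Enl-T1, for a log2 ratio of 0.77 (0.57 to 0.97) on 648 and 1129 counts. Nephron progenitor-like nuclei had 31.59 and 47.14 CPM there, a ratio of 0.58 (0.41 to 0.74), just under the line, and ureteric-like nuclei 30.04 and 36.43 CPM, 0.28 (0.00 to 0.55). Only the stroma-like ratio passed the line, its interval overlapped that of progenitor-like nuclei, and the ureteric-like interval reached down to 0.00. The intronic region at 5.24 kb was called higher in progenitor-like nuclei, at 4.70 CPM in Enl-WT against 8.49 in Enl-T1, a ratio of 0.85 (0.43 to 1.29) on 131 and 347 counts. The intronic region at 9.74 kb was lower in all 3, with log2 ratios of -1.73, -0.76 and -1.07 in progenitor-like, stroma-like and ureteric-like nuclei. Its peak was 2357 bp long in Enl-WT against 817 bp in Enl-T1, and per base of peak the ratios were -0.20, 0.77 and 0.45, so its direction turned in stroma-like and ureteric-like nuclei once the length of the peak was divided out.

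The start of Wnt4 was followed into the clusters that both libraries filled. Stroma cluster 3 held 590 nuclei of Enl-WT against 1146 of Enl-T1 and had 3 of 6 medullary stroma markers raised (Alx1, Penk and Lef1). There the start stood at 28.62 CPM against 47.56, a log2 ratio of 0.73 (0.38 to 1.09). In cluster 0 (1300 and 1676 nuclei) the ratio was 0.27 (-0.09 to 0.64) and in cluster 6 (962 and 363 nuclei) 0.48 (-0.18 to 1.09), and both intervals included 0. Summed over the gene, Wnt4 was higher in cluster 3 than in cluster 6 by 1.06 on the log2 scale in Enl-WT against 1.29 in Enl-T1. Cluster 8, with 0 nuclei of Enl-WT against 1116 of Enl-T1, and cluster 14, with 27 against 574, allow no comparison. The start stood at 21.77 CPM in the first and 48.17 CPM in the second in Enl-T1. The class ratio of 0.77, which includes both, is above each of the ratios within clusters 0, 3 and 6. Over the whole stroma-like class, summed medullary stroma markers were 667.1 CPM in Enl-WT against 710.7 in Enl-T1 (4 of 6 higher) and cortical stroma markers 312.1 and 280.6 (1 of 7 higher), and their part in the ratio was not tested. Between the nephron progenitor clusters, the start stood at 31.66 CPM in cluster 2 of Enl-WT, 49.49 in cluster 1 of Enl-T1 and 44.06 in cluster 5 of Enl-T1. The 96 nuclei of Enl-T1 in cluster 2 gave 38.02 CPM on 35 counts, 0.26 (-0.52 to 0.95) over Enl-WT.

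The highest ratio among member regions with 200 counts was that of Wnt9b at 12.45 kb in progenitor-like nuclei, 1.31 (0.97 to 1.67) on 177 counts in Enl-WT against 646 in Enl-T1. In clusters it stood at 6.37 CPM in cluster 2 of Enl-WT, 14.02 in cluster 1 of Enl-T1 and 18.85 in cluster 5 of Enl-T1, ratios of 1.14 (0.76 to 1.53) and 1.57 (1.18 to 1.96) to cluster 2. The 96 nuclei of Enl-T1 in cluster 2 had 10.86 CPM on 10 counts, a ratio of 0.77 (-0.89 to 2.05). When each nucleus was placed by its own markers alone, which left 358 and 539 progenitor-like nuclei, the ratio was -0.30 on 42 and 32 counts. The start of Wnt9b went the other way in this class, at 8.29 CPM in Enl-WT against 5.99 in Enl-T1, a ratio of -0.47 (-0.85 to -0.09) that did not pass 1.5-fold. In ureteric-like nuclei, the class of its known source, the ratios of its start and of its region at 14.27 kb were -0.01 (-0.24 to 0.23) and -0.13 (-0.33 to 0.07).

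For Wnt7b the called region was at 44.10 kb (chr15:85537941-85538795) in progenitor-like nuclei, with 12.03 CPM in Enl-WT against 7.44 in Enl-T1, for a log2 ratio of -0.69 (-1.02 to -0.37) on 335 and 304 counts. In Enl-WT the region was more open in distal tubule or loop-like (25.75 CPM), proximal tubule-like (22.80), early nephron epithelium-like (22.73) and ureteric-like nuclei than there. The ureteric-like nuclei had 19.89 and 17.29 CPM, -0.20 (-0.57 to 0.17). The other 4 shared regions of Wnt7b were not called in any class. Of these, the intronic region at 42.61 kb had 23.70 and 26.43 CPM in ureteric-like nuclei, and the one at 5.85 kb had 1.31 CPM on 12 counts in endothelial-like nuclei of Enl-WT against 6.33 on 25 in those of Enl-T1, too few to be called. In addition, 5 of its peaks, between 1.71 and 26.66 kb from the start, were called in Enl-WT alone. They have no value in Enl-T1 here. Wnt6 had little contrast between the classes compared in its summed level. Its intronic region at 4.03 kb was higher in stroma-like nuclei, at 3.44 CPM in Enl-WT against 5.25 in Enl-T1, 0.61 (0.14 to 1.09). Within the stroma clusters that both libraries filled it had 2.88 and 4.85 CPM in cluster 0, 7.08 and 6.62 in cluster 3 and 2.30 and 2.56 in cluster 6, each with overlapping intervals. Cluster 14, with 27 nuclei of Enl-WT against 574 of Enl-T1, had 9.94 CPM in Enl-T1. The region of Wnt6 at 12.53 kb was not called in any class, and the one at 1.38 kb had 24.41 and 24.39 CPM in progenitor-like nuclei.

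Wnt11 at its start (chr7:98834629-98835491) was lower in ureteric-like nuclei of Enl-T1, at 19.89 CPM in Enl-WT against 13.22 in Enl-T1, for a log2 ratio of -0.59 (-0.98 to -0.20) on 245 and 201 counts. The class was made up differently in the libraries, with 717 nuclei of Enl-WT against 1014 of Enl-T1 in cluster 4 and 166 and 711 in cluster 9. Against cluster 9, cluster 4 had 3 of 5 ureteric tip markers raised (Etv4, Slco4c1 and Sox8), but not Ret and Etv5. Summed tip markers in the class were 388.9 CPM in Enl-WT against 346.9 in Enl-T1, and their part in the lower value was not tested. Within cluster 4 the start of Wnt11 had 22.27 and 17.92 CPM, -0.31 (-0.74 to 0.11), and within cluster 9 9.55 and 5.54 CPM, -0.79 (-1.98 to 0.47), and both intervals included 0. In either library it was higher in cluster 4 than in cluster 9, by 1.22 (0.33 to 2.26) on the log2 scale in Enl-WT against 1.69 (0.91 to 2.57) in Enl-T1. Elsewhere in the gene, the intronic region at 16.40 kb was open in both stroma-like nuclei (11.60 CPM in Enl-WT, 8.62 in Enl-T1) and endothelial-like nuclei (11.77 and 14.44), and stood at 1.96 to 3.98 CPM in progenitor-like and ureteric-like nuclei. The region upstream of the start and the regions at 2.85 and 3.88 kb were not called in any class, and their log2 ratios in progenitor-like nuclei were 0.04, 0.06 and 0.13.

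Other ligands were ordered over the same ureteric clusters. Wnt9b summed to 140.60 CPM in cluster 4 of Enl-WT and 103.30 in cluster 9, and to 137.33 and 100.89 in Enl-T1, log2 ratios of 0.44 (0.16 to 0.74) and 0.44 (0.24 to 0.65). Wnt7b summed to 86.08 and 98.09 CPM in Enl-WT and 87.38 and 105.05 in Enl-T1, ratios of cluster 4 to cluster 9 of -0.19 (-0.49 to 0.12) and -0.27 (-0.48 to -0.05). Wnt4 also was lower in cluster 4 than in cluster 9, with ratios of -0.65 (-0.99 to -0.29) and -0.51 (-0.79 to -0.23). For Wnt4, Wnt5a, Wnt9b, Wnt11 and Wnt7b summed over the gene, the interval of the ratio between the libraries included 0 within cluster 4 and within cluster 9.

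**Figure D4:**
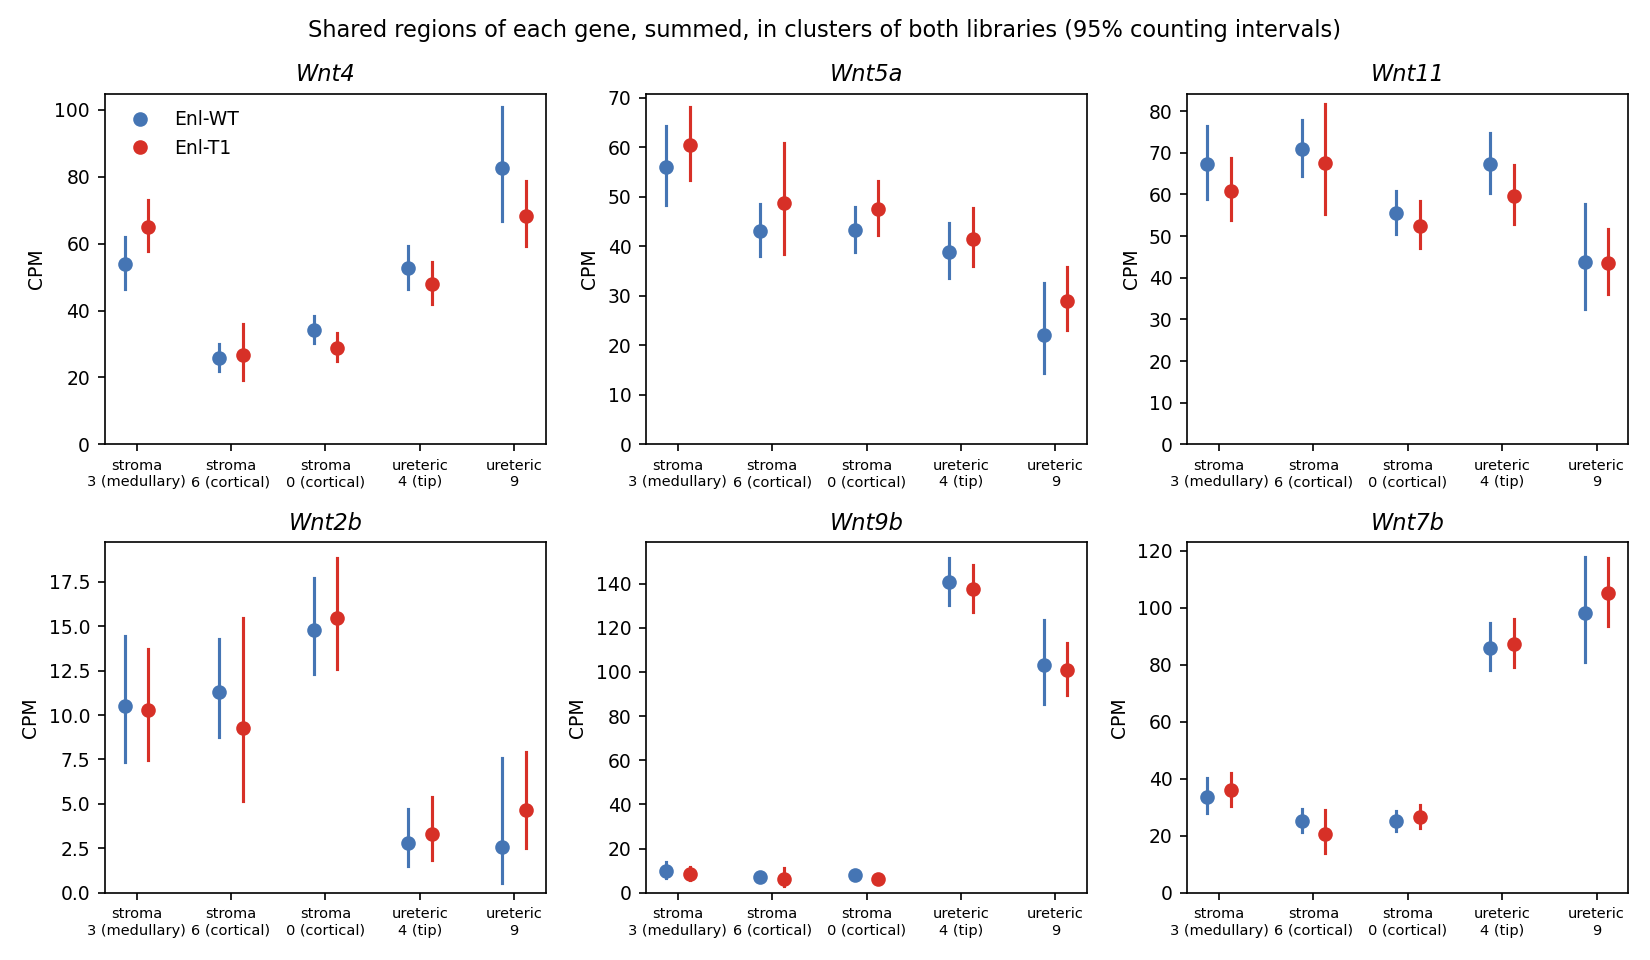
CPM (y axis) of 6 of the genes, summed over shared regions, in 3 stroma and 2 ureteric clusters (x axis) of Enl-WT (blue) and Enl-T1 (red), with 95% counting intervals. Wnt9b and Wnt7b are high in the ureteric clusters, Wnt9b highest in cluster 4 (140.60 and 137.33 CPM), and Wnt4 is higher in stroma cluster 3 than in cluster 6.

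Wnt5a had no shared region past 1.5-fold. It also had 2 peaks called in Enl-WT alone and 2 in Enl-T1 alone, which have no value in the other library and could not be called. Its start (chr14:28504156-28505059) had 19.18 CPM in stroma-like nuclei of Enl-WT and 22.61 in those of Enl-T1, 0.24 (0.03 to 0.44), and 8.58 and 11.03 in progenitor-like nuclei, 0.36 (0.04 to 0.70). Its intronic regions at 1.87 and 2.97 kb had 0.48 (0.07 to 0.90) and 0.19 (-0.14 to 0.54) in progenitor-like nuclei. Wnt2b had none either. Its intronic region at 5.50 kb had 7.75 and 8.12 CPM in stroma-like nuclei, the highest of the 4 classes in either library, and a ratio of 0.07 (-0.27 to 0.41). Its UTR region at 16.81 kb had another order, with 7.36 and 6.46 CPM in progenitor-like nuclei. It had 3.98 and 3.31 CPM in stroma cluster 0, 5.67 and 2.62 in cluster 3 and 5.76 and 2.56 in cluster 6. The higher summed level of Wnt2b in stroma-like than in progenitor-like nuclei thus lay in the region at 5.50 kb. At the Wnt2b start the peaks of the libraries lay side by side without overlap, at chr3:104961531-104962080 in Enl-WT and chr3:104962112-104962667 in Enl-T1, so that the promoter has no shared region and was not compared. Without strand in the counts, signal at Wnt5a, Wnt7b, Wnt6, Wnt11 and Wnt2b cannot be told apart from that of overlapping genes (Gm2670, AU022754, Gm29539, Gm8398 and Gm43846).

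Regions within 100 kb of a start, outside the 7 genes and all other protein-coding genes, were taken as context and numbered 77. In progenitor-like nuclei 73 had 200 counts, and 11 were higher and 10 lower in Enl-T1. Around Wnt4 there were 23 such regions, of which 9 were higher, 1 was lower and 19 lay above 0, with a median log2 ratio of 0.52, beside -0.02 over all 73. Per base of peak these medians were 0.40 and 0.13. Around Wnt11 1 of 16 was higher and 5 were lower, with a median of -0.12, and around Wnt5a 1 of 2 was higher. Stroma-like nuclei had 6 higher and 2 lower of 63, of which 4 of the higher ones were around Wnt4, ureteric-like nuclei 0 and 1 of 38, and endothelial-like nuclei 0 and 0 of 15. The shares given above are over all shared regions, including promoters and gene bodies, and so are an unlike background. No share over regions outside genes was taken. Regions of one gene lie in the same stretch of chromatin and are not independent of each other.

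**Figure D5:**
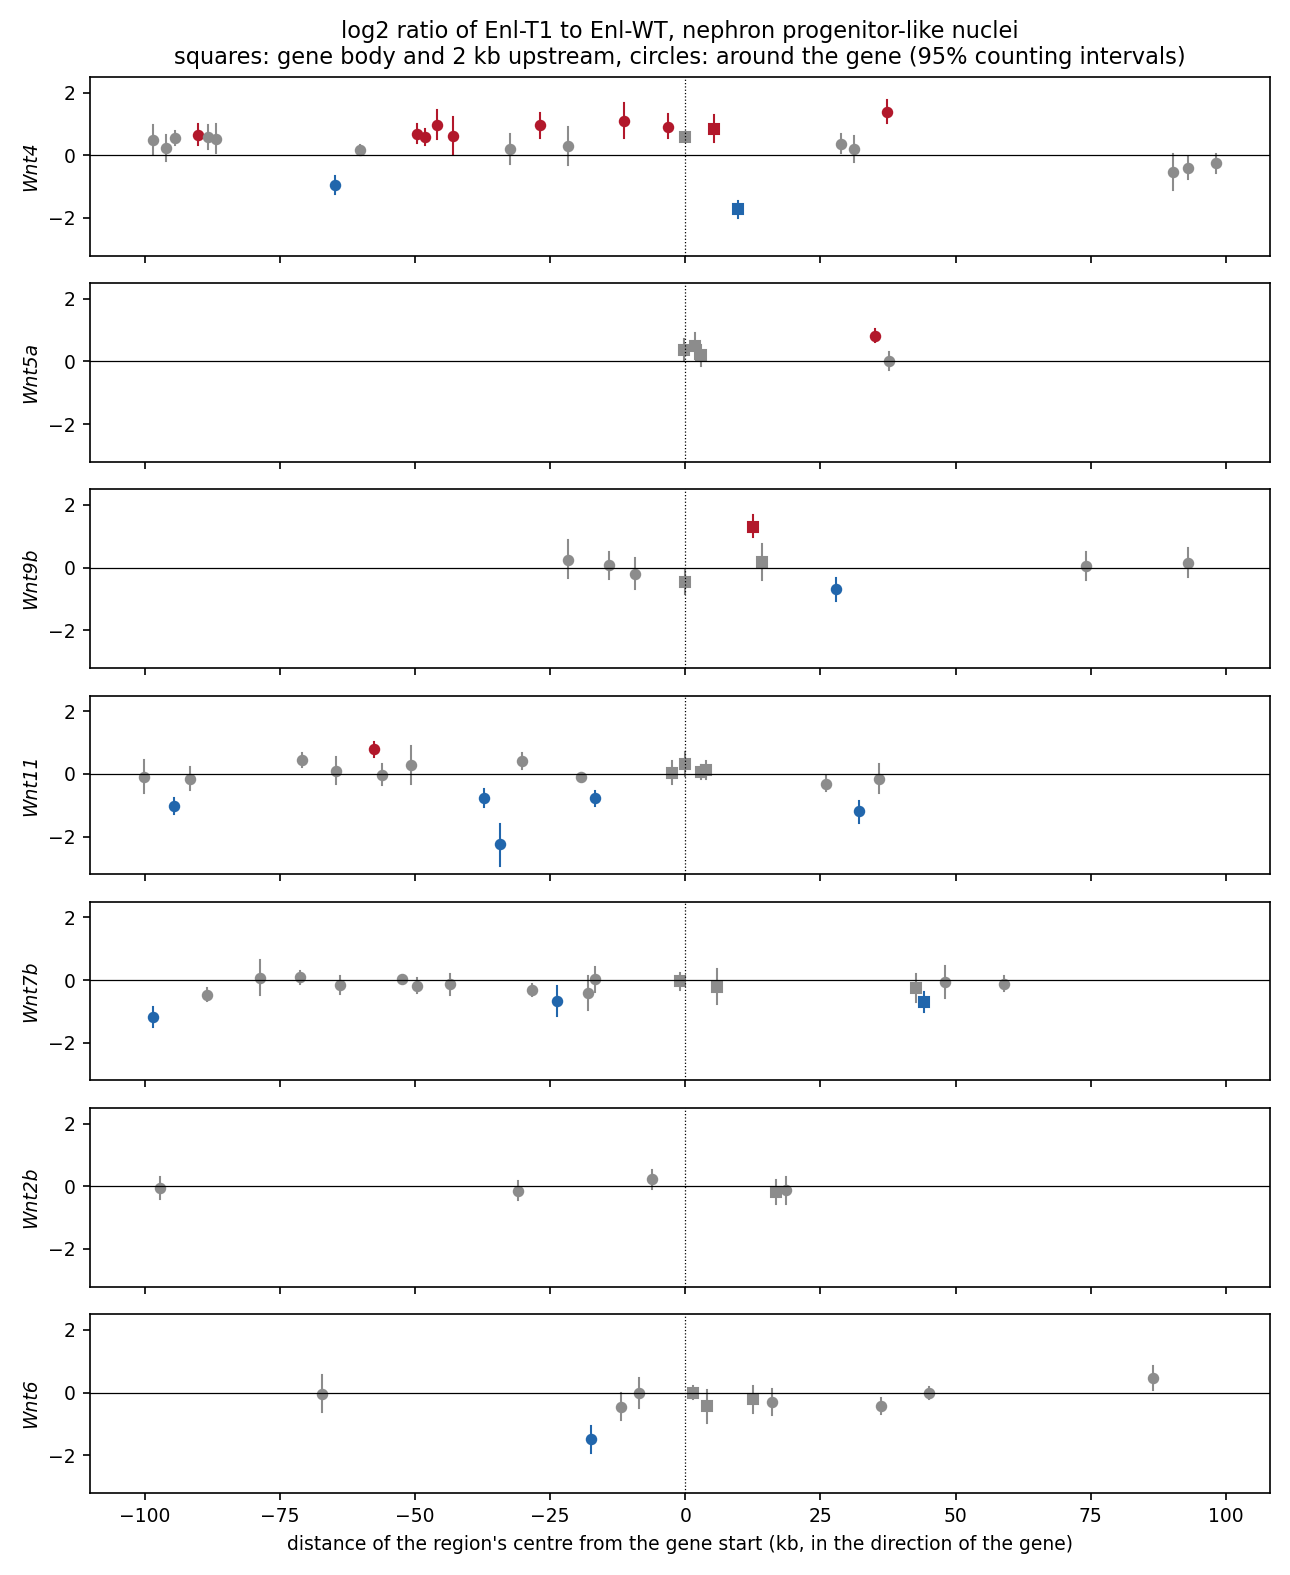
Log2 ratio of Enl-T1 to Enl-WT in progenitor-like nuclei (y axis) of regions with at least 200 counts by distance from each gene's start (x axis, kb in the direction of the gene), with squares for member regions, circles for regions around the gene, bars for 95% counting intervals, and red and blue for higher and lower past 1.5-fold. Most points of Wnt4 lie above 0 (19 of 23 circles), and those of Wnt11 lie on both sides.

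The 3 highest of these in progenitor-like nuclei were around Wnt4. The region at 37.4 kb from the Wnt4 start, beyond the end of the gene, had a ratio of 1.39 on 159 and 610 counts, with 5.72 CPM in cluster 2 of Enl-WT, 10.06 in cluster 1 of Enl-T1 and 22.54 in cluster 5. The region 11.4 kb upstream of Wnt4 had 1.10, and 0.48 per base of peak. The region 26.8 kb upstream had 0.96 on 145 and 413 counts, and 1.01 per base. A Wnt5a region at 35.1 kb was not among the 3 highest and is named because it was called higher there, with the choice made after its values were seen. It was open in progenitor-like nuclei at 20.10 and 35.59 CPM, a ratio of 0.82 (0.62 to 1.03), and at 2.36 and 2.65 CPM in stroma-like nuclei. Its window, printed above, holds Hox9 to Hox13 letters, which 15.4% of all windows also do.

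The 3 lowest in progenitor-like nuclei were 2 regions around Wnt11 and 1 upstream of Wnt6. The region 34.3 kb upstream of Wnt11 had -2.25 on 175 and 54 counts, with peaks of 943 bp in Enl-WT against 405 bp in Enl-T1, and -1.03 per base. The region at 32.1 kb from Wnt11 had -1.20 (-0.68 per base), and the region 17.4 kb upstream of Wnt6 had -1.49 (-1.14 per base). In stroma-like nuclei the highest were the Wnt4 regions at -90.2 kb (1.08) and -98.4 kb (0.90) and the Wnt7b region at -78.7 kb (0.80). The lowest there was the Wnt2b region at 18.6 kb, just past the end of the gene, at -1.23 on 292 and 127 counts, which had 17.61 CPM in cluster 6 of Enl-WT and 5.13 in that of Enl-T1. It was followed by the Wnt11 regions at -37.3 kb (-0.68, and -0.32 per base) and 26.1 kb (-0.46, not past 1.5-fold).

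The rest of the pathway was read from 49 genes in 5 lists (other ligands, secretion, receptors, secreted modulators, canonical targets). In progenitor-like nuclei all 49 had 200 counts, and 2 were higher and 1 lower past 1.5-fold, beside the gene backgrounds above. The receptor gene Fzd10 had a log2 ratio of 0.92 (19.60 CPM in Enl-WT, 37.16 in Enl-T1), Lef1, a TCF/LEF factor that is itself on the medullary stroma marker list, 0.67 (49.58 and 78.65), and Rspo1, an R-spondin that strengthens Wnt signals, -0.63 (102.81 and 66.49). Next to these stood Sp5 at 0.48, Wnt3 at -0.56 and Fzd9 at -0.46. In stroma-like nuclei 0 of 49 were called, and the extremes were Axin2 (0.53), Wnt3a (0.45), Wnt8b (0.29), Sfrp1 (-0.45), Wnt3 (-0.35) and Fzd4 (-0.35).

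In ureteric-like nuclei 0 of 45 pathway genes were called, with Rspo4 (0.56), Axin2 (0.36) and Wnt10b (0.35) the highest and Fzd1 (-0.38), Fzd6 (-0.36) and Fzd4 (-0.31) the lowest. In endothelial-like nuclei 0 of 36 were called, with Axin2 (0.57), Wif1 (0.33) and Fzd8 (0.32) against Fzd2 (-0.43), Fzd5 (-0.35) and Sfrp2 (-0.31). Axin2, a feedback inhibitor that canonical signalling switches on, was not called in any class. Before its peak lengths were considered, its ratio was above 0 in each of the 4 classes, with 0.17 in progenitor-like nuclei. The canonical target list as a whole had medians of 0.08 in progenitor-like, -0.04 in stroma-like, -0.05 in ureteric-like and 0.12 in endothelial-like nuclei. Over all genes the medians were 0.008, -0.002, -0.018 and -0.011. For Axin2 the lengths differed. Its peaks summed to 4246 bp in Enl-WT against 4860 bp in Enl-T1, and per base its ratios were -0.03 in progenitor-like, 0.34 in stroma-like, 0.17 in ureteric-like and 0.37 in endothelial-like nuclei.

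Likeness between genes was described by Pearson's r of log2(CPM + 1) over 15 points, each a class in a library, among 16719 genes. The points share libraries and differ in depth, so r describes these classes only. Most like Wnt9b were Mark2 (0.966), Ccdc120 (0.965) and Tnk1 (0.965), and most like Wnt7b were Upk3a (0.964), a urothelial plaque protein gene that is itself on the ureteric marker list, Slc25a48 (0.961) and Spint2 (0.954), an epithelial protease inhibitor gene. Most like Wnt4 were Ptprt (0.963), Grin2b (0.962) and Pcsk2 (0.959), and most like Wnt5a were Slc12a9 (0.954), Sema3c (0.949), a secreted semaphorin gene, and Etl4 (0.948). For Wnt11 they were Unc13c (0.948), Slc17a8 (0.943) and Creb3l4 (0.934), and for Wnt6 Zfp712 (0.885), Cd300e (0.838) and Il2ra (0.833). Wnt2b had Ezh1, a Polycomb methyltransferase gene, at 0.907, and the next genes at 0.882 and 0.878. Among the members themselves the closest pair was Wnt9b and Wnt7b (0.92), both most open in ureteric-like nuclei. Wnt5a and Wnt11 (0.79) and Wnt4 and Wnt7b (0.70) followed. The other ligands introduced as ureteric were less like this pair, with 0.44 and 0.58 for Wnt11 and -0.13 and 0.01 for Wnt6, to Wnt9b and Wnt7b.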

How the data were processed

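The authors aligned the reads to mm10 with Cell Ranger ATAC 2.1.0, per the labels, and deposited for each library its own peaks, its barcodes and a matrix of raw counts, 1 per fragment end. Barcodes with 2000 to 100000 counts were kept. The study's filters on fragments were not applied, since they need the fragments. Peaks that overlapped by at least 1 bp made shared regions, and CPM were scaled to the counts of a class in these. Nuclei were clustered with leidenalg 0.10.2 and igraph 0.11.9, without batch correction and without removal of doublets in the main run. Clusters were named by marker lists, and 2 rules, a lead of 0.1 on the log2 scale over the next lineage and no name for a cluster of low depth, were set after the clusters were seen. The members, lists and motifs were chosen with earlier results of these data known.

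Named are all member regions, the 3 highest and 3 lowest of the regions around them in the progenitor-like and stroma-like classes and of the other pathway genes per class, all with at least 200 counts, and the 3 genes most like each member. A region around the genes was left out of all counts and is not reported here. With 1 library per group, nuclei are not replicates and no p-value is given. The code for ratios was tested on simulated data. Alternatives covered depth, scaling, peak matching, naming, clustering, doublets and thinning.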

Additional observations from a re-analysis of the deposited data

Results flagged for a closer look

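A region 23.7 kb upstream of the Wnt7b start moved in opposite directions in the classes compared. Its log2 ratio of Enl-T1 to Enl-WT was -0.67 (-1.16 to -0.19) in progenitor-like nuclei, with 5.49 CPM in Enl-WT against 3.45 in Enl-T1, and 0.60 (0.18 to 1.03) in stroma-like nuclei, with 4.31 and 6.53 CPM. Its peaks were of nearly equal length, 886 and 887 bp. The difference between the classes was not tested, since each group is 1 library.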

How the results depend on the processing

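Of 529 values recomputed under alternatives, 479 stayed within the counting interval of the main value, and 4 ratios of called regions reversed. For folds over the other nuclei the relative interval of the class level was used. Some intervals are wide, such as -0.33 to 2.25 for Wnt2b in endothelial-like nuclei, and some settings changed only the scaling. The 479 is therefore no measure of stability. The log2 ratios of gene sums changed sign in 29 of 359 recomputed values. Some genes with 200 counts in the main-run sum passed 1.5-fold under an alternative. These were Wnt4 in stroma-like nuclei with 80% reciprocal overlap (0.74), per base (0.96) and at its start alone (0.77), and Wnt4 per base in progenitor-like (0.65) and endothelial-like nuclei (0.72). Wnt11 did so at its start alone in ureteric-like (-0.59) and endothelial-like nuclei (1.13), the latter on a region under 200 counts. Wnt5a with own markers (0.86) and Wnt9b with a naming lead of 0.2 (0.64) did so in progenitor-like nuclei. Wnt7b did so in endothelial-like nuclei under 3 settings (0.60 to 0.77). The count of member regions called in progenitor-like nuclei was 4 in the main run, 2 with peaks matched at 80% reciprocal overlap, 2 at 2-fold and 0 with nuclei placed by their own markers. In stroma-like nuclei 3 became 1, 0 and 1 under the same settings. In ureteric-like nuclei 2 became 1, 1 and 0, and also 1 at a Leiden resolution of 2, 0 with binary counts and 0 per base of peak, an alternative chosen after seeing the data. In endothelial-like nuclei 0 became 1 with a minimum of 50 counts, and 1 with the low-depth cluster kept, also chosen after seeing the data. Own markers reversed the Wnt9b region at 12.45 kb in progenitor-like nuclei (-0.30) and the Wnt11 start in ureteric-like nuclei (0.02), and took the number of genes at least 2-fold higher in ureteric-like nuclei from 2 to 1 in both libraries. That setting leaves far fewer nuclei in these classes, and its names differ widely from the main run. In Enl-T1 it named 445 nuclei podocyte-like against 0 in the main run, and 490 proximal tubule-like against 5. The cause of the reversals was not tested. Per base of peak, the Wnt4 region at 9.74 kb reversed to 0.77 in stroma-like and 0.45 in ureteric-like nuclei, because its peaks differ in length. The start region alone gave no value for Wnt7b, Wnt2b and Wnt6. No paired analysis was possible because each group has 1 library. Low counts limit the endothelial-like class most, with 710 and 511 nuclei, in which 1 of 25 member regions reached 200 counts.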

Other observations

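Of the peaks called in 1 library alone, the most counted was an Enl-WT peak 1.71 kb into Wnt7b (chr15:85580060-85581474), with 1154 counts over all nuclei, or 9.42 CPM. The most counted peaks called in Enl-T1 alone were one 6.65 kb into Wnt5a (chr14:28511008-28511791), with 670 counts or 6.45 CPM, and the one at the Wnt2b start, with 616 counts or 5.93 CPM beside 650 counts or 5.30 CPM at its Enl-WT neighbour. These peaks have no value in the other library.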
